A study of Mus musculus with 9 samples.

Results

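The transcripts described here are 10 genes of bone morphogenetic protein (BMP) signalling and of its Id target family, taken by Ensembl identifier from a table of exon counts for 52550 genes. They are the ligand gene Bmp4, the receptor genes Bmpr1a and Bmpr2, the signal-transducing Smad1 and Smad5, the inhibitory Smad6 and Smad7, and Id1, Id2 and Id3. All 10 were found and all 10 passed the filter on low counts, as did 11893 genes in all. The cells were mouse embryonic stem (ES) cells derived from V6.5, a hybrid line, kept in medium holding LIF, 15% FBS and 2i, a pair of inhibitors against GSK and MEK. The groups were 5 libraries labelled as KLF2/KLF4 double knockout (DKO) and 4 wild-type (WT) libraries, with the same medium in both. Neither separate cultures or clones nor the deleted part of either gene is given in the sources used here.

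BMP ligands bind complexes of type I and type II receptor kinases at the cell surface. The receptors phosphorylate SMAD1 and SMAD5, which enter the nucleus with SMAD4 and switch on targets such as the Id genes. SMAD6 and SMAD7 are feedback inhibitors. Id proteins lack a DNA-binding region and hold E proteins, which are basic helix-loop-helix (bHLH) factors, in inactive pairs. In mouse ES cells, BMP supplied by serum is known to sustain self-renewal together with LIF, in part through Id genes.

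Library totals ran from 6035642 to 6617834 counts in the libraries labelled DKO and from 6557408 to 7098530 in WT. Klf2 had 3750 to 4044 counts in the libraries labelled DKO and 3042 to 3297 in WT, and Klf4 had 9385 to 10778 counts in the libraries labelled DKO and 5085 to 6183 in WT. Both targets were therefore read more often, not less, where the label says DKO. Reads of a 3' end outside a deleted part check nothing, so each direction here is that of libraries labelled DKO over libraries labelled WT. Of 8 ES cell markers, all were tested, 5 rose and 2 fell. Of all genes tested, 23.9% rose and 24.0% fell, the background for each marker count given here. The summed level of the 8 ES cell markers was 2592 to 2717 CPM in the libraries labelled DKO and 2044 to 2170 CPM in WT. CPM are counts scaled to a common library size. The summed level of 10 fibroblast markers was 5.09 to 8.15 CPM in the libraries labelled DKO and 11.8 to 15.6 CPM in WT, with Lum at 0 in every library. That of 7 trophectoderm markers was 234 to 307 CPM in the libraries labelled DKO and 86.8 to 94.4 CPM in WT. That of 7 primitive endoderm markers was 4.60 to 6.13 CPM in the libraries labelled DKO and 4.70 to 7.93 CPM in WT. Of the fibroblast list 1 was tested and fell, and of the primitive endoderm list 2 were tested, of which 1 rose and 1 fell. Of the trophectoderm list 3 were tested: Tfap2c rose, with 260 CPM in the libraries labelled DKO and 66.3 CPM in WT, while Eomes and Gata3 fell, so the higher sum rests on Tfap2c. The part of these marker shifts in the results that follow was not tested.

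Id1, Id3, Bmp4, Smad6 and Smad1 were lower in the libraries labelled DKO, and Smad7 was higher. Id2, Smad5, Bmpr1a and Bmpr2 did not pass the test. With edgeR's quasi-likelihood test at an adjusted p under 0.05, 5 of the 10 fell and 1 rose, beside 24.0% of all genes tested that were lower and 23.9% that were higher. Calls in either direction made up 60% of the members and 47.8% of all genes, so the share called is near the background. The CPM ranges of the groups did not overlap for 6 of the 10, the same 6, against 37.4% of all genes. The median log2 fold change was -0.23 over the members and 0.01 over all genes tested. Fewer cells with a transcript and less RNA per cell cannot be told apart in these bulk libraries.

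**Figure D1:**
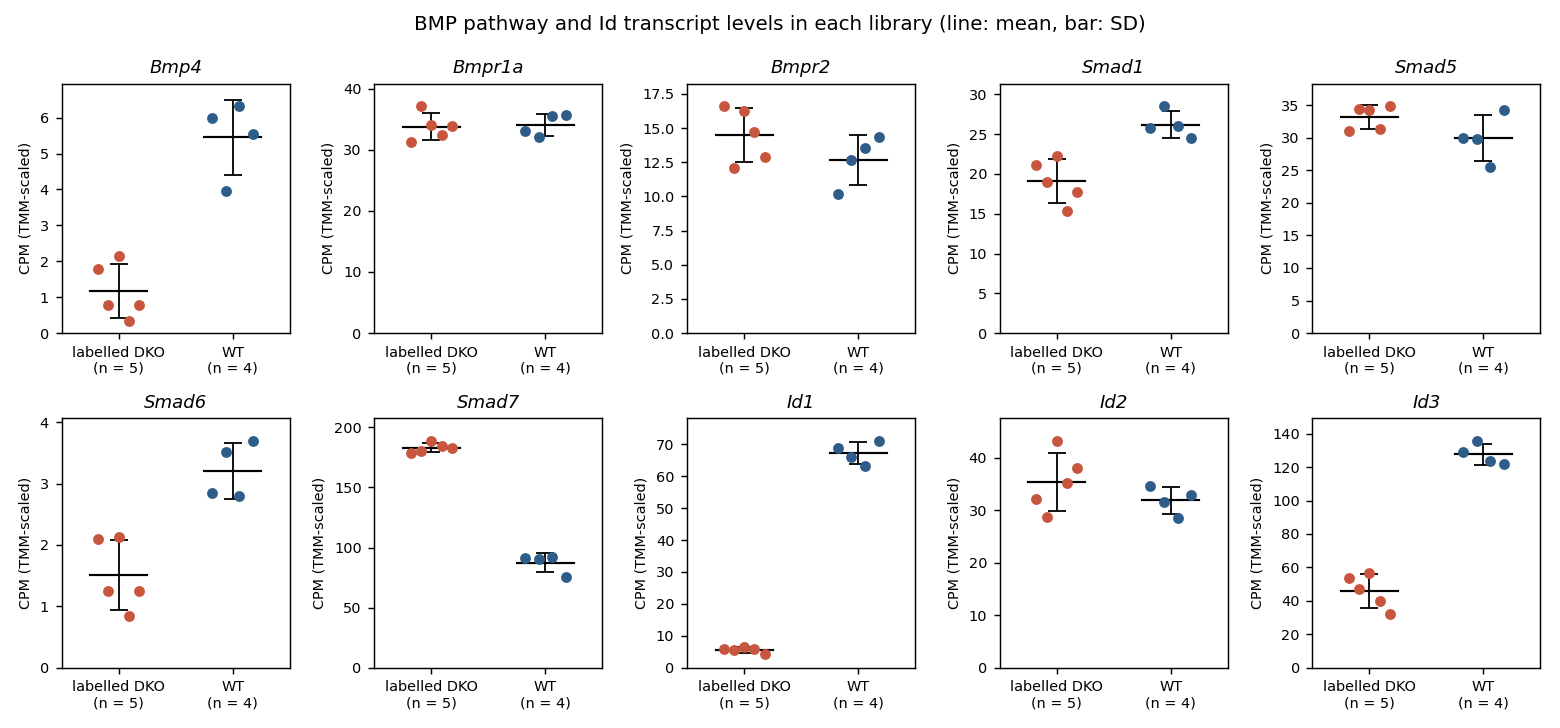
CPM (vertical axis, from 0) of each of the 10 genes in each library, with the 5 libraries labelled DKO left of the 4 WT libraries; points are libraries, lines are means and bars are SD. The groups separate fully for Bmp4, Smad1, Smad6, Smad7, Id1 and Id3, with only Smad7 higher in the libraries labelled DKO.

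Id1 (ENSMUSG00000042745, chromosome 2, 152736251 to 152737410, plus strand), an inhibitor of bHLH factors and a direct target of BMP-activated SMADs, had the largest change of the 10. Its counts were 39, 36, 40, 35 and 27 in DKO 1 to 5 and 461, 432, 430 and 500 in WT 1 to 4. Every library labelled DKO thus had at most 40 counts and every WT library at least 430. The levels were 5.64 ± 0.855 CPM in the libraries labelled DKO and 67.3 ± 3.44 CPM in WT (SD, n = 5 and 4). The fitted difference was -3.57 ± 0.11 on the log2 scale (SE, adjusted p = 3.68e-24 by edgeR), which leaves 8.39% of the WT level. In order of log2 fold change Id1 stood 35th from the bottom of the 11893 genes tested. None of 101 other genes tested within 5 Mb of Id1 fell as far: their lowest value was -3.27 and their median -0.06.

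Id3 (ENSMUSG00000007872, chromosome 4, 136143497 to 136145755, plus strand), a close relative of Id1, fell by less. It had 360, 301, 344, 237 and 206 counts in DKO 1 to 5, against 864, 889, 840 and 858 counts in WT 1 to 4. DKO 5 was the lowest and DKO 3 the highest of its group on the CPM scale, at 32.4 and 56.5 CPM, while WT spanned 122 to 136 CPM. The means were 46.0 ± 9.93 CPM in the libraries labelled DKO and 128 ± 6.23 CPM in WT, or -1.47 ± 0.12 as log2 fold change and SE (adjusted p = 2.79e-07 by edgeR).

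Id2 (ENSMUSG00000020644, chromosome 12, 25093799 to 25097140, minus strand), the third Id gene among the members, did not pass. Its counts were 215, 183, 263, 208 and 242 in DKO 1 to 5 and 231, 207, 194 and 231 in WT 1 to 4, and the groups overlapped. The log2 fold change was 0.15 with a 95% interval of -0.05 to 0.35 (edgeR adjusted p = 0.221), so a fall of the size seen for Id3 lies outside the interval. Id4, the remaining family member, was named after its values were seen. It stood at 10.6 ± 2.74 CPM in the libraries labelled DKO and 13.4 ± 1.84 CPM in WT (log2 fold change -0.33 ± 0.16, edgeR adjusted p = 0.0864). It passed without DKO 1 (adjusted p = 0.0475) or without DKO 2 (adjusted p = 0.0207), and 16 alternatives spanned 0.0207 to 0.247.

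The Id genes therefore changed by unequal amounts, which ratios of counts within a library test without any scaling. The ratio of Id1 to Id3 counts was 0.108, 0.120, 0.116, 0.148 and 0.131 in DKO 1 to 5 and 0.534, 0.486, 0.512 and 0.583 in WT 1 to 4. No library of either group reached the range of the other. The log2 ratio was -3.0 ± 0.17 in the libraries labelled DKO and -0.92 ± 0.11 in WT, a difference of -2.07. For Id1 to Id2 the difference was -3.71, with log2 ratios of -2.63 ± 0.31 in the libraries labelled DKO and 1.08 ± 0.07 in WT. For Id2 to Id3 it was 1.64, with -0.36 ± 0.40 in the libraries labelled DKO and -2.0 ± 0.12 in WT. Each of the 3 gave an exact permutation p of 0.00794 (2-sided, n = 5 and 4), the smallest that 126 divisions of the libraries can give, and the same value after BH adjustment over 5 ratios. The longest run of identical bases shared by annotated transcripts of these pairs was 11 bases for Id1 and Id2, 12 for Id1 and Id3 and 19 for Id2 and Id3.

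**Figure D2:**
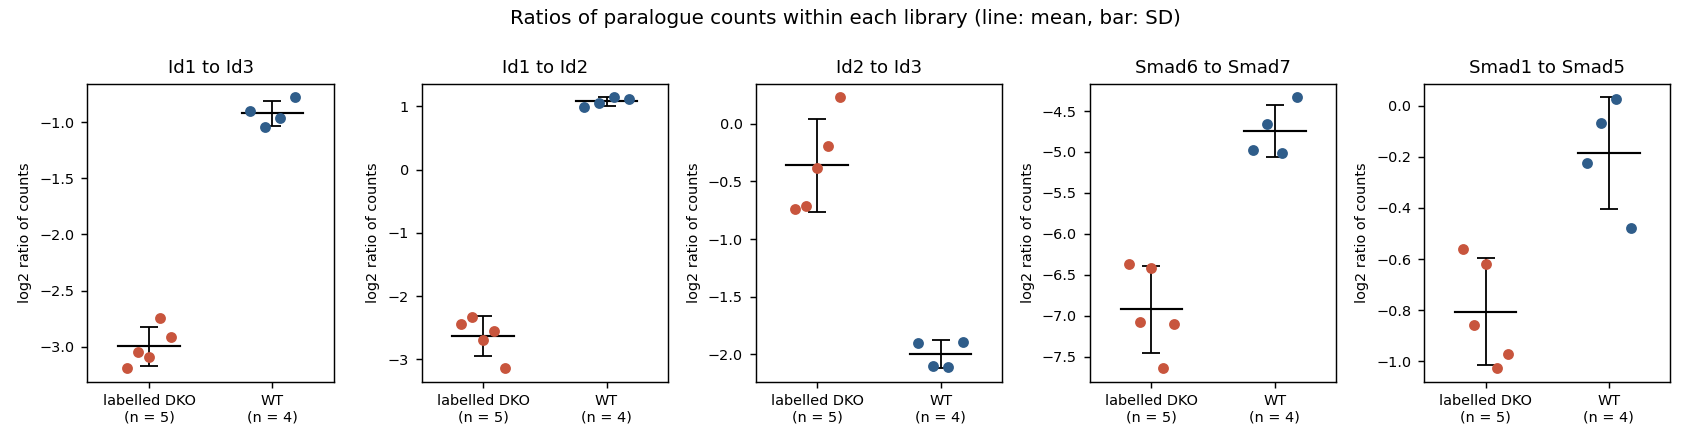
Log2 ratio of counts of 2 related genes in each library (vertical axes, each with its own range not starting at 0), libraries labelled DKO left of WT; points are libraries, lines means and bars SD. All 5 ratios separate the groups, and only Id2 to Id3 is higher in the libraries labelled DKO.

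Windows of the 250 bases before a RefSeq transcription start (GRCm38.p6) were at hand for 8 of the 10 genes, all but Id1 and Smad7. They were searched on both strands for GGCGCC and CAGAC, motifs known to be bound by SMAD proteins, and for CCNCNCCC, the core of the boxes that KLF and SP factors bind. Matches of different motifs were counted separately, also where they shared bases, and Smad5 has several starts, each with its window. Of all 32851 such windows, 9.59% held GGCGCC, 42.2% CAGAC and 45.9% CCNCNCCC. GGCGCC matched for 4 of the 8 genes (Id2, Bmpr1a, Bmpr2 and Smad5), CAGAC for Id3 and Smad5, and CCNCNCCC for 7, all but Smad1. A gene was counted if any of its windows matched, whereas the shares are of single windows, so Smad5 had more chances of a match. The stretches that follow set Id3, which fell, beside Id2, which did not pass, and show where the SMAD-type letters lie in each, in capitals. The Id2 stretch is chr12:25096254-25096342, minus strand. It lies before a RefSeq start but inside the GENCODE span of Id2 (25093799 to 25097140), where it holds no exon base. The Id3 stretches are chr4:136143642-136143671 and chr4:136143741-136143770, plus strand, inside an exon of a longer GENCODE transcript.
Id2 upstream: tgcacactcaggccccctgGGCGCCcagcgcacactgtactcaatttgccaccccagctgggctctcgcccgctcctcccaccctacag
Id3 site 1: ctgtcctcggcgtCAGACcagcctaaggaa
Id3 site 2: tggacccttggcgGTCTGttttgaataagg
These matches are a description of letters, and no factor binding was measured.

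Bmp4 (ENSMUSG00000021835, chromosome 14, 46383520 to 46390669, minus strand) encodes a BMP ligand and was the ligand among the members. It had 12, 5, 13, 2 and 5 counts in DKO 1 to 5 and 40, 26, 43 and 39 counts in WT 1 to 4. DKO 4 lay below the floor of 3 counts, and the highest library labelled DKO stayed below the lowest WT library. The levels were 1.17 ± 0.760 CPM in the libraries labelled DKO and 5.45 ± 1.04 CPM in WT, or -2.20 ± 0.32 as log2 fold change and SE (adjusted p = 4.91e-07 by edgeR). At 37 counts over all libraries labelled DKO and 148 over all WT libraries, the size is less precise than for Id1, with a 95% interval of -2.84 to -1.56. The opposite-strand gene Gm15217 shares 89 exon bases with Bmp4 and had 0 counts in all libraries.

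Among 14 other ligand genes only Gdf3 and Bmp7 had enough reads for the fit. Gdf3, a ligand of the same superfamily expressed in pluripotent cells, rose with 223 ± 11.2 CPM in the libraries labelled DKO and 175 ± 8.98 CPM in WT (log2 fold change 0.35 ± 0.05, edgeR adjusted p = 1.3e-06). It lies on chromosome 6, where 87 other genes tested within 5 Mb had a median of 0.33. Bmp7 had 2.62 ± 0.543 CPM in the libraries labelled DKO and 3.56 ± 1.06 CPM in WT and did not pass (log2 fold change -0.45, edgeR adjusted p = 0.172). Of 13 list genes below the filter with at least 10 counts in all, Bmp8a and Smad9 had an exact permutation p under 0.05. Bmp8a had 1, 6, 6, 4 and 8 counts in DKO 1 to 5 and 12, 12, 10 and 11 in WT 1 to 4 (2-sided exact p = 0.0159, 0.103 after BH adjustment over the 13). Reads of Bmp8a and of its close copy Bmp8b may be split or lost in counting, so the value is uncertain. Neither Bmp8a nor Smad9 passed after adjustment.

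The receptors among the members did not pass. Bmpr1a (ENSMUSG00000021796, chromosome 14, 34410734 to 34503341, minus strand), which encodes a type I receptor for BMP4, had 209, 237, 208, 192 and 216 counts in DKO 1 to 5 and 221, 211, 242 and 251 in WT 1 to 4. Its levels were 33.8 ± 2.22 CPM in the libraries labelled DKO and 34.1 ± 1.76 CPM in WT, or -0.02 as log2 fold change with a 95% interval of -0.19 to 0.16 (edgeR adjusted p = 0.903). Bmpr2 (ENSMUSG00000067336, chromosome 1, 59763400 to 59879014, plus strand), which encodes a type II receptor, had 111, 77, 99, 87 and 82 counts in DKO 1 to 5 and 68, 83, 92 and 101 in WT 1 to 4. Its levels overlapped, at 14.5 ± 2.00 CPM in the libraries labelled DKO and 12.7 ± 1.80 CPM in WT (log2 fold change 0.19, 95% interval -0.09 to 0.47, edgeR adjusted p = 0.264). Both intervals exclude a change of 1 on the log2 scale.

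Of 5 other receptor genes 3 were tested and 1 passed, or 33.3% called beside 47.8% of all genes. The gene that passed was Acvr2b. This type II receptor, which activins also use, had 39.9 ± 2.61 CPM in the libraries labelled DKO and 34.2 ± 2.65 CPM in WT (log2 fold change 0.22 ± 0.09, edgeR adjusted p = 0.0313). The call was lost without DKO 1, 2, 4 or 5 and without WT 2, 3 or 4 (adjusted p = 0.0529 to 0.102), with no filter (adjusted p = 0.0570) and under the replicate block (adjusted p = 0.0566). The range over 16 alternatives was 0.0105 to 0.102.

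Among co-receptors, which help ligands reach the receptors, all 5 tested of 6 listed rose, beside 23.9% of all genes, with a median log2 fold change of 0.39 beside 0.01 for all genes tested. Tgfbr3, betaglycan, a membrane proteoglycan that presents ligands of this superfamily, had 22.0, 22.1, 18.2, 25.1 and 32.4 CPM in DKO 1 to 5, against 3.74, 3.35, 4.85 and 4.26 CPM in WT 1 to 4 (log2 fold change 2.56 ± 0.17, edgeR adjusted p = 2.55e-14). Rgmb, a BMP co-receptor of the repulsive guidance molecule family, had 18.8, 14.3, 18.5, 17.9 and 17.9 CPM in DKO 1 to 5 and 4.04, 7.32, 5.29 and 6.96 CPM in WT 1 to 4 (log2 fold change 1.56 ± 0.16, edgeR adjusted p = 4.7e-10). The CPM ranges of the groups did not overlap for both genes and for Neo1, beside 37.4% of all genes tested. Neo1, neogenin, a receptor for these guidance molecules, rose by 0.29 ± 0.06 on the log2 scale (adjusted p = 0.000343 by edgeR). Endoglin (Eng, 0.37 ± 0.13, edgeR adjusted p = 0.0194) and Rgma (0.39 ± 0.15, edgeR adjusted p = 0.0280) also rose. The call for Eng was lost without DKO 3 (adjusted p = 0.0526) or WT 2 (adjusted p = 0.124), and 16 alternatives spanned 0.0101 to 0.124. That for Rgma was lost without DKO 2, 4 or 5 and without WT 1, 2 or 3 (adjusted p = 0.0542 to 0.116), and under the replicate block (adjusted p = 0.0560), and 16 alternatives spanned 0.00249 to 0.116.

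Of 17 listed extracellular and membrane antagonists 5 were tested. Fst, follistatin, which traps activins and some BMPs, rose with 36.3 ± 5.40 CPM in the libraries labelled DKO and 22.2 ± 2.32 CPM in WT (log2 fold change 0.71 ± 0.11, edgeR adjusted p = 9.79e-07). Fstl1, a follistatin-like secreted protein, fell with 127 ± 17.4 CPM in the libraries labelled DKO and 191 ± 10.98 CPM in WT (log2 fold change -0.59 ± 0.07, edgeR adjusted p = 5.79e-07). Dand5, a secreted antagonist at 0.796 ± 0.162 CPM in the libraries labelled DKO and 2.32 ± 0.935 CPM in WT, also fell (log2 fold change -1.53 ± 0.38, edgeR adjusted p = 0.001) and was named after its values were seen. It lies on chromosome 8, where 80 genes tested within 5 Mb had a median of -0.59. The decoy receptor Bambi (-0.04, edgeR adjusted p = 0.828) and Twsg1, a secreted modulator (0.22, edgeR adjusted p = 0.0824), did not pass. Twsg1 passed without DKO 5 (adjusted p = 0.0327), without WT 4 (adjusted p = 0.0461) and under the replicate block (adjusted p = 0.0261), and 16 alternatives spanned 0.0261 to 0.3004. Noggin (Nog), the classical BMP antagonist, had 4 counts over all libraries labelled DKO and 8 over all WT libraries, and did not pass (2-sided exact permutation p = 0.341, 0.488 after BH adjustment over the same 13 genes).

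The signal-transducing SMAD genes differed from each other. Smad1 (ENSMUSG00000031681, chromosome 8, 79338395 to 79399518, minus strand) fell, with 141, 121, 136, 91 and 113 counts in DKO 1 to 5 and 172, 187, 177 and 173 in WT 1 to 4. Its levels were 19.1 ± 2.75 CPM in the libraries labelled DKO and 26.2 ± 1.66 CPM in WT, or -0.45 ± 0.11 as log2 fold change and SE (adjusted p = 0.000789 by edgeR). Smad5 (ENSMUSG00000021540, chromosome 13, 56703010 to 56742377, plus strand), whose product carries the same signal, had 208, 220, 209, 186 and 222 counts in DKO 1 to 5 and 201, 196, 174 and 241 in WT 1 to 4. The groups overlapped for Smad5 and it did not pass (log2 fold change 0.15, 95% interval -0.04 to 0.34, edgeR adjusted p = 0.189). The log2 ratio of Smad1 to Smad5 counts was -0.81 ± 0.21 in the libraries labelled DKO and -0.19 ± 0.22 in WT, a difference of -0.62 (exact permutation p = 0.00794, n = 5 and 4, 2-sided). The lowest WT ratio, 0.718 in WT 4, lay close above the highest ratio in the libraries labelled DKO, 0.678 in DKO 1.

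Smad1 lies 7.02 Mb distal to Klf2 on a stretch of chromosome 8 where most genes were lower in the libraries labelled DKO. Proximal to Klf2, 206 of 304 genes tested rose and 24 fell, with a median log2 fold change of 0.42. Of 358 other genes tested distal to Klf2, 272 fell and 18 rose, with a median log2 fold change of -0.60. Of 47 other genes tested within 5 Mb of Smad1, 35 fell and 4 rose, with a median of -0.49. Smad1, at -0.45, differed from its neighbours' median by 0.03, and 224 of the 358 distal genes had lower values. No other member had a neighbourhood median beyond 0.1 in size. Whether the change of Smad1 and that of its chromosome have 1 cause was not tested.

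**Figure D3:**
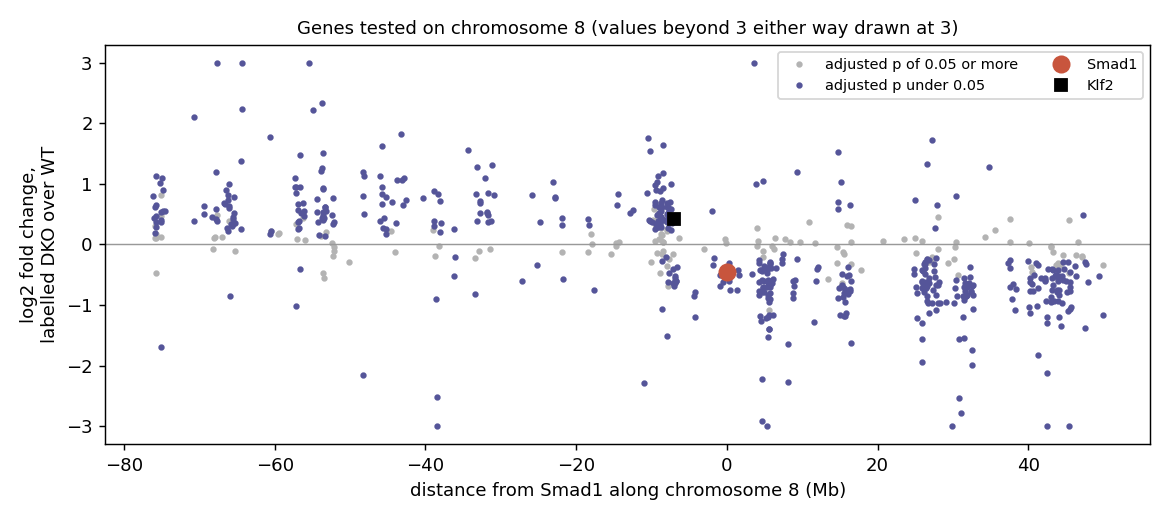
Log2 fold change, libraries labelled DKO over WT (vertical axis), of each gene tested on chromosome 8 against its distance from Smad1 in Mb (horizontal axis); points are genes, coloured by adjusted p under 0.05 or not, and values beyond 3 are drawn at 3. Genes proximal to Klf2 (square) lie mostly above 0, with a median of 0.42, and Smad1, at -0.45, lies among genes with a median of -0.49 within 5 Mb.

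Smad4, the shared partner of these factors, had 73.1 ± 4.07 CPM in the libraries labelled DKO and 79.0 ± 5.79 CPM in WT and did not pass (log2 fold change -0.11, edgeR adjusted p = 0.169). Smad9, the third BMP-activated SMAD gene, had 0, 0, 0, 1 and 0 counts in DKO 1 to 5 and 2, 5, 9 and 3 in WT 1 to 4. The groups did not overlap (2-sided exact p = 0.00794, 0.103 after BH adjustment over the 13 genes below the filter), but 7 of the 9 libraries lie at or below the floor of 3 counts.

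The inhibitory SMAD genes moved in opposite directions. Smad7 (ENSMUSG00000025880, chromosome 18, 75367529 to 75395935, plus strand), whose product blocks BMP, activin and TGF-beta receptors, had 1197, 1149, 1149, 1095 and 1163 counts in DKO 1 to 5 and 612, 593, 630 and 533 in WT 1 to 4. It rose, with 183 ± 3.85 CPM in the libraries labelled DKO and 87.6 ± 7.95 CPM in WT, or 1.06 ± 0.06 as log2 fold change and SE (adjusted p = 1.04e-16 by edgeR). The libraries labelled DKO lay close together, and WT 4 stood below the other WT libraries.

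Smad6 (ENSMUSG00000036867, chromosome 9, 63953076 to 64022059, minus strand), whose product acts mainly on the BMP branch, had 14, 8, 13, 5 and 8 counts in DKO 1 to 5 and 19, 23, 19 and 26 in WT 1 to 4. It fell, with 1.52 ± 0.571 CPM in the libraries labelled DKO and 3.21 ± 0.459 CPM in WT, or -1.07 ± 0.30 as log2 fold change and SE (adjusted p = 0.00398 by edgeR) and a 95% interval of -1.68 to -0.45. The log2 ratio of Smad6 to Smad7 counts was -6.92 ± 0.53 in the libraries labelled DKO and -4.74 ± 0.32 in WT, a difference of -2.17 (exact permutation p = 0.00794, n = 5 and 4, 2-sided). Smad6 rests on 48 counts over all libraries labelled DKO and 87 over all WT libraries.

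Bmp4 and Smad6 fell together and have windows that hold no exon base of theirs, so both windows are shown whole, with CCNCNCCC and its reverse complement in capitals: Bmp4 at chr14:46390670-46390919 and Smad6 at chr9:64022060-64022309, both on the minus strand of GRCm38.p6, read from RefSeq starts.
Bmp4 upstream: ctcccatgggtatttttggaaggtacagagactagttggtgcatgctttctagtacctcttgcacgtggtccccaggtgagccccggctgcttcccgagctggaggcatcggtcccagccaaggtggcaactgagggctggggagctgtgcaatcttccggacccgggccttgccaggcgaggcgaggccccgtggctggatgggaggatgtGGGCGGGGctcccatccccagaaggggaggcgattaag
Smad6 upstream: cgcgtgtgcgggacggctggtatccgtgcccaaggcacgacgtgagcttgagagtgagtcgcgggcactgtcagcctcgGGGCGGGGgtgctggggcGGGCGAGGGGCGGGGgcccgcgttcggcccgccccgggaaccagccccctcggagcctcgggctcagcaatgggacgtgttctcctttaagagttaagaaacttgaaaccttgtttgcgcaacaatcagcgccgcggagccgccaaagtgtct
The Bmp4 window held 1 match and the Smad6 window 3, of a motif found in 45.9% of all windows, and neither held GGCGCC or CAGAC. Among members that did not pass, matches numbered 13 for Bmpr2, 8 for Bmpr1a, 1 for Id2 and 4, 4 and 2 in the Smad5 windows. Of the others that fell, Id3 had 2 and Smad1 had 0. The first Smad5 window, with 4 matches, also holds no exon base and is not shown.

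**Figure D4:**
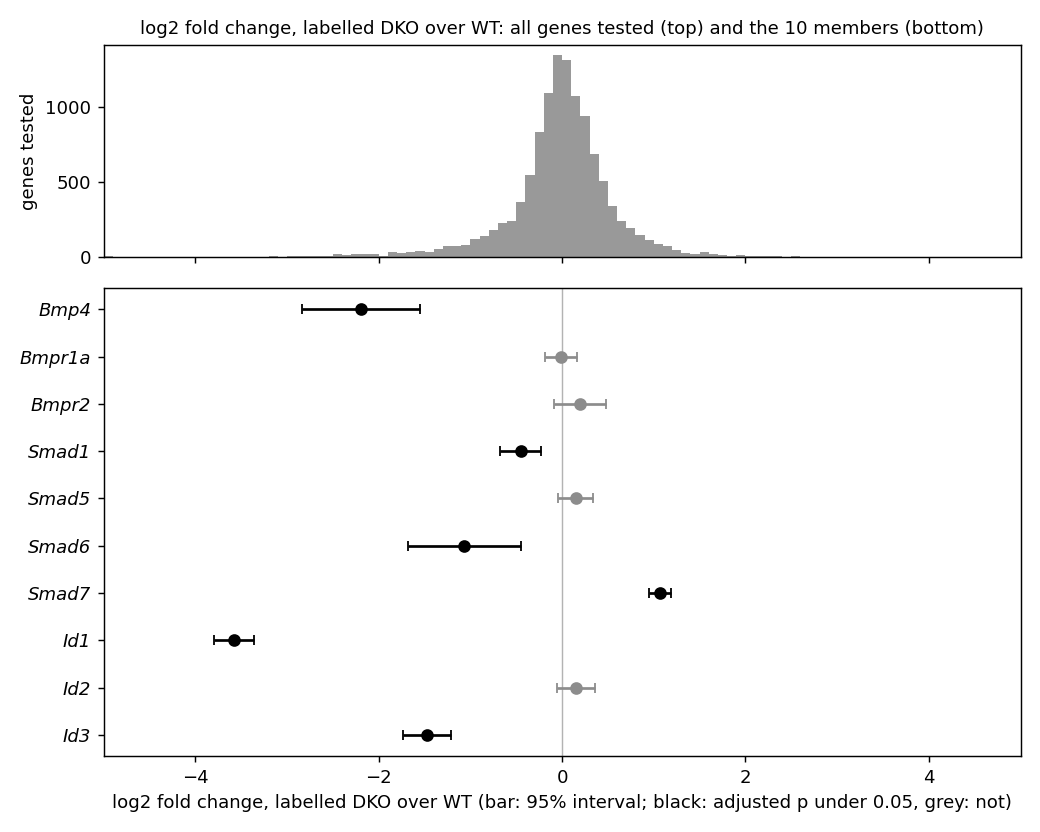
Top: number of genes tested (vertical axis) by log2 fold change, libraries labelled DKO over WT, with values beyond 5 drawn at 5. Bottom: the 10 genes on the same horizontal axis, with 95% intervals; black points had an edgeR adjusted p under 0.05 and grey points did not. Id1, at -3.57, lies far from the bulk of genes, and the intervals of Bmpr1a, Bmpr2, Smad5 and Id2 hold 0.

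Of 15 intracellular regulators of SMADs, all tested, 5 rose and 2 fell, or 46.7% called beside 47.8% of all genes, with a median log2 fold change of 0.04. The co-repressors Ski (0.27 ± 0.08, edgeR adjusted p = 0.00445) and Skil (0.33 ± 0.08, edgeR adjusted p = 0.000659) rose, as did Lemd3 (0.30 ± 0.09, edgeR adjusted p = 0.00762), an inner nuclear membrane protein that binds SMADs. Ctdsp2, a phosphatase of the small C-terminal domain family, rose with 124 ± 10.1 CPM in the libraries labelled DKO and 97.0 ± 6.65 CPM in WT. Its relative Ctdspl fell with 3.38 ± 0.871 CPM in the libraries labelled DKO and 8.51 ± 2.13 CPM in WT (log2 fold change -1.32 ± 0.22, edgeR adjusted p = 4.57e-06). The antiproliferative genes Tob1 and Tob2 split, with log2 fold changes of -0.64 ± 0.14 (edgeR adjusted p = 0.000255) and 0.29 ± 0.08 (edgeR adjusted p = 0.00363). Fkbp1a, which holds type I receptors inactive, and the phosphatase gene Ppm1a did not pass (-0.09 and -0.06, edgeR adjusted p = 0.1003 and 0.403), though Fkbp1a passed without WT 1 (adjusted p = 0.0403, range 0.0403 to 0.311 over 16 alternatives).

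The 3 E protein genes, whose products Id proteins bind, all passed, beside 47.8% of all genes tested. Tcf12 had 72.2, 74.0, 64.0, 73.2 and 80.4 CPM in DKO 1 to 5, against 36.8, 37.2, 37.8 and 35.5 CPM in WT 1 to 4, or 0.98 ± 0.08 as log2 fold change and SE (adjusted p = 4.45e-13 by edgeR). Tcf3 (-0.23 ± 0.07, edgeR adjusted p = 0.00591) and Tcf4 (-0.18 ± 0.06, edgeR adjusted p = 0.0199) fell by small amounts. The call for Tcf4 was lost without DKO 2 (adjusted p = 0.0564, range 0.00625 to 0.0564 over 16 alternatives).

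Other genes known as BMP targets went both ways. Of 14 listed, 8 were tested, 4 fell and 3 rose, or 87.5% called beside 47.8% of all genes, with a median log2 fold change of -0.48. The homeobox gene Msx2 had 8, 9, 5, 12 and 7 counts in DKO 1 to 5 and 31, 41, 40 and 42 in WT 1 to 4 (log2 fold change -2.11 ± 0.27, edgeR adjusted p = 5.72e-08). Gata3 (-0.90 ± 0.21, edgeR adjusted p = 0.000699) and Gata2 (-0.68 ± 0.21, edgeR adjusted p = 0.00717), zinc finger factors, fell at levels under 10 CPM, and Gata3 also belongs to the trophectoderm marker list. The CPM ranges of the groups overlapped for Gata3 but not for Gata2. Gata2 lies on chromosome 6, where 83 other genes tested within 5 Mb had a median of -0.25. Junb, an AP-1 gene, fell (-0.38 ± 0.09, edgeR adjusted p = 0.000828) on the distal part of chromosome 8, where its neighbours' median was -0.59.

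Dusp9, an ERK phosphatase known to be induced by BMP in mouse ES cells, rose with 111, 97.3, 85.3, 115 and 102 CPM in DKO 1 to 5, against 48.6, 52.5, 52.0 and 51.7 CPM in WT 1 to 4 (log2 fold change 0.99 ± 0.07, edgeR adjusted p = 2.65e-13). Prdm1, a transcriptional repressor needed for primordial germ cells, rose with 93.1 ± 13.9 CPM in the libraries labelled DKO and 45.0 ± 5.43 CPM in WT (log2 fold change 1.05 ± 0.11, edgeR adjusted p = 1.3e-07). Hey1, a bHLH repressor named after its values were seen, rose although the ranges of the groups overlapped (3.67 ± 0.723 CPM in the libraries labelled DKO and 1.73 ± 0.794 CPM in WT, log2 fold change 1.08 ± 0.30, edgeR adjusted p = 0.00323). Over all 77 listed genes outside the members, 43 were tested, 17 rose and 10 fell, or 62.8% called beside 47.8% of all genes, with a median of 0.05.

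**Figure D5:**
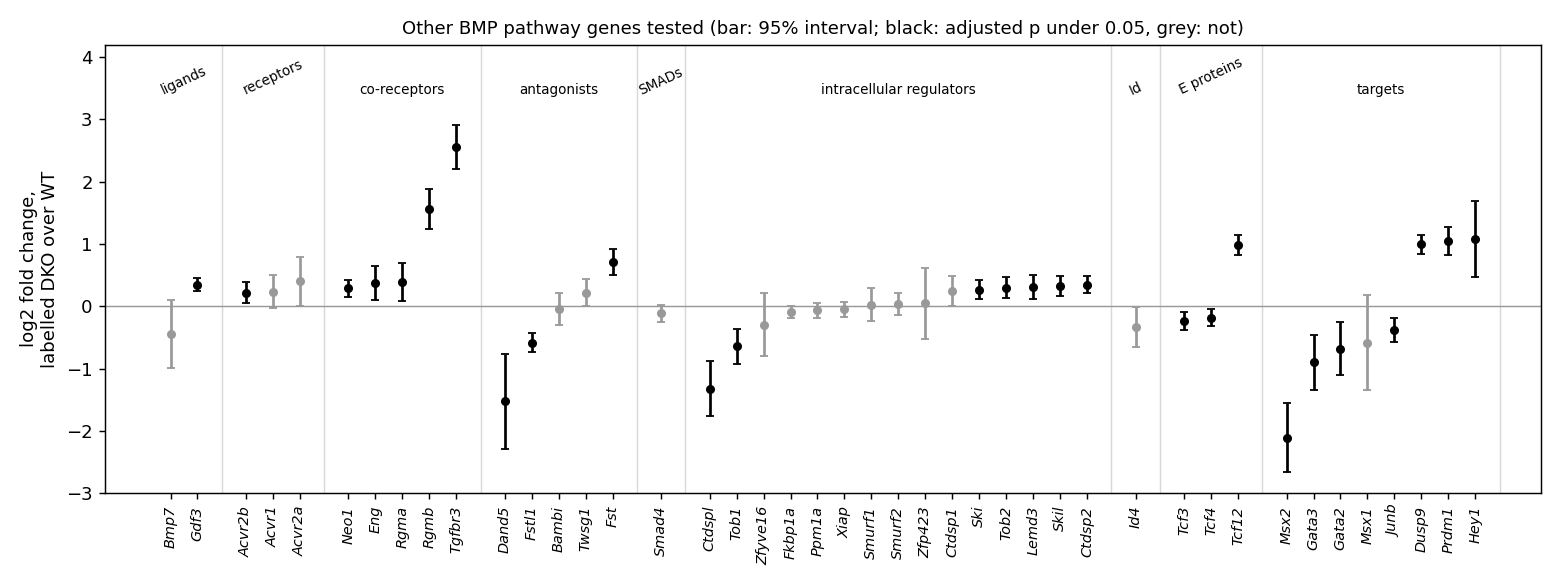
Log2 fold change, libraries labelled DKO over WT (vertical axis), of the 43 tested genes of the wider lists, grouped by role and sorted within a group; bars are 95% intervals, black points had an edgeR adjusted p under 0.05 and grey points did not. All 5 co-receptors lie above 0, with Tgfbr3 at 2.56, and the lowest target is Msx2 at -2.11.

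By the root mean square difference of centred log2 CPM over the 9 libraries, and among 8121 genes with a mean of at least 10 CPM in a group, the genes closest to Id1 were Ak4, Ccnd1 and Pcolce2. Ak4, an adenylate kinase, had 36.6 ± 5.24 CPM in the libraries labelled DKO and 432 ± 30.002 CPM in WT (distance 0.179). Ccnd1, cyclin D1, followed at a distance of 0.195 and Pcolce2, a procollagen protease enhancer, at 0.199. With 2 groups this measure is set mostly by the size of the group difference.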

How the data were processed

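RNA from 9 ES cell libraries was measured, 5 labelled DKO and 4 WT. Per the labels' protocols, 600 ng of Trizol-extracted RNA entered Lexogen's QuantSeq 3' kit (FWD), so reads come from transcript 3' ends. The authors deposited exon read counts per Ensembl gene, without normalization. The submitters' processing notes name mm10 and, with no order, STAR, cutadapt, DESeq2 and featureCounts. For their versions, the annotation, the strand setting and multi-mapped reads, the sources used here hold no statement. Overlapping genes and close copies may therefore share or lose reads.

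Of 52550 identifiers, 52403 matched GENCODE M21 (GRCm38, the same build), the source of symbols and coordinates. Genes kept by filterByExpr were scaled by TMM, and edgeR 4.0.16 (R 4.3.3) fitted its robust quasi-likelihood model with genotype as the only term. P-values were BH-adjusted over all 11893 genes tested, with a threshold of 0.05. CPM are means ± SD on TMM-scaled sums over tested genes. Fold changes are log2, DKO over WT, with SE from the F statistic and 95% intervals from its degrees of freedom. Ratios used counts plus 0.5. Exact permutation tests were 2-sided over all 126 divisions of the libraries. The fit was checked on simulated counts, and the exact test on made-up values with a known answer.

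The members and lists were chosen with earlier results of these data known. Named from each list are the passing genes with 5 CPM or more in a group, and up to 2 others with 20 CPM or more. Id4, Bmp7, Bmp8a, Smad9, Nog, Dand5, Bambi and Hey1 fall outside this rule and were chosen after their values were seen. Nearest patterns used log2 CPM with a prior count of 2, leaving out predicted genes. The nearest patterns to Bmp4 are not reported here. Alternatives were RLE factors (edgeR), library totals, no filter, 5 CPM in 4 libraries, DESeq2 1.42.0, a replicate block, no chromosomes 6, 8 and Y, and each library left out. A floor of 3 counts was 0.423 to 0.497 CPM of a library's total. Intervals of counts and floors cover counting error only. Chi-square per degree of freedom was 2.22 to 4.98 over the 16 pairs of libraries within a group, so none looked like 1 library counted again. The labels do not say that libraries came from separate cultures, so p-values measure spread among libraries that may be technical only.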

Additional observations from a re-analysis of the deposited data

Results flagged for a closer look

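WT 4 stood apart for Smad7, at 75.7 CPM, while the other WT libraries lay between 90.4 and 92.6 CPM. Its gap to the nearest of them was 0.873 of the group's range. Of 30 groups of values examined (10 genes and 5 ratios, each in the libraries labelled DKO and in WT), this was the only 1 set apart, and chance sets apart about 1 in 20. Without WT 4 the log2 fold change of Smad7 was 0.995 (edgeR), against 1.06 with it.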

How the results depend on the processing

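All 10 genes kept their side of the threshold in every alternative that gave them a value, 15 or 16 each, and those that passed kept their direction. Id1 ranged from -3.63 to -3.49, Id3 from -1.55 to -1.37, Bmp4 from -2.51 to -1.98, Smad6 from -1.21 to -0.92, Smad1 from -0.51 to -0.39 and Smad7 from 0.995 to 1.09 (log2 fold change). Bmp4 and Smad6 had no value under the filter of 5 CPM in 4 libraries, and Smad1 none without chromosome 8. Wider-list genes passing numbered 14 to 17 higher and 7 to 11 lower, all genes 2375 to 2918 higher and 2384 to 3157 lower. Deviations from group means correlated weakly between same-numbered libraries (r = 0.01 to 0.07, against -0.06 to 0.05 for other numbers). DKO 1 to 4 each correlated best with the WT library of the same number, and 3 of the 4 WT libraries did so in turn. These values do not settle whether the numbers pair libraries. With the replicate block 2746 genes were higher and 2784 lower, against 2837 and 2852 without it. Over the 4 same-numbered pairs, the block gave log2 ratio differences of -2.09 (Id1 to Id3), -3.59 (Id1 to Id2), 1.49 (Id2 to Id3), -0.58 (Smad1 to Smad5) and -2.13 (Smad6 to Smad7), each with an exact sign-flip p of 0.125, the smallest 4 pairs can give, so these say nothing about stability. Depth limits Bmp4, Smad6, Smad9 and most ligands.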

Other observations

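Among the libraries labelled DKO, DKO 3 was the highest on the CPM scale for 7 of the 10 genes: Id1, Id2, Id3, Bmp4, Smad1, Smad6 and Smad7. DKO 4 was the lowest for Bmp4, Smad1 and Smad6, and DKO 5 for Id1 and Id3. Among WT libraries, WT 4 was the highest for 5 of the 10. The summed level of Id1, Id2 and Id3 was 74.6 to 106 CPM in the libraries labelled DKO and 215 to 233 CPM in WT. Id1 made up 5.68% to 7.29% of that sum in the libraries labelled DKO and 28.3% to 31.5% in WT, while Id2 made up 35.0% to 50.9% in the libraries labelled DKO and 13.3% to 14.8% in WT. These groupings were noticed after the values were seen and were not tested.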
